A study of Mus musculus with 20 samples.

Results

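The 10 hexose transporter genes described here were picked by gene name from the deposited gene counts, out of 54532 genes. They are 7 genes of the facilitative family (Slc2a1, Slc2a2, Slc2a3, Slc2a4, Slc2a5, Slc2a9 and Slc2a12) and 3 genes of the sodium-coupled family (Slc5a1, Slc5a2 and Slc5a10). All 10 genes passed the filter on low counts. Bulk RNA sequencing of the Cre-less AAV model gave libraries of 10 tumors and 10 normal kidneys, whose expression profiles were to be compared. In this model C57BL/6 mice carry LSL-Cas9/+, a Cas9 and EGFP cassette behind a Lox-Stop-Lox block, together with Pax8 Cre/+, which opens the cassette in cells that express Pax8, mainly tubule epithelium. An adeno-associated virus (AAV) with sgRNAs against Vhl, Pbrm1, Keap1 and Tsc1 was injected directly into the kidney. Both kinds of tissue came from a cohort of 10 mice of this model, so the normal kidneys carried the Cas9 and Cre alleles too. Which tumor and kidney shared a mouse, and whether the normal tissue came from an injected kidney, are not given in the sources used here. Each tumor is a mixture of edited cells and host cells, and no age of a mouse is given for a library. Mice of both sexes were among them, as read below from Xist, a female marker, and Ddx3y, a male marker.

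Glucose filtered at the glomerulus is taken back by the proximal tubule. SGLT2 (Slc5a2) on the luminal side of the early tubule takes up the bulk of it together with sodium, and SGLT1 (Slc5a1) clears what is left further along. GLUT2 (Slc2a2) then lets glucose out into the blood on the opposite side of the same cells. GLUT1 (Slc2a1) serves glucose uptake in most cells, is made in more distal segments of the nephron, and is a known target of hypoxia-inducible factors (HIFs), which accumulate when Vhl is lost.

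The promoters of these genes are shown because the sgRNA set targets Vhl, and HIFs bind short core sequences in promoters and enhancers. RefSeq promoter entries (GRCm38.p6) matched 7 of the 10 genes. Slc2a3, Slc2a4 and Slc5a2 were not matched. The 250 bases before each RefSeq start were searched on both strands for ACGTG and GCGTG, the usual HIF cores, and for CACGTG, an E-box that contains ACGTG. The windows below are those of Slc2a1 (chr4:119108495-119108744, + strand) and Slc5a1 (chr5:33103969-33104218, + strand), which hold a core, and of Slc2a2 (chr3:28697653-28697902, + strand), Slc5a10 (chr11:61720800-61721049, - strand) and Slc2a12 (chr10:22644761-22645010, + strand), which hold none. Each is written 5′ to 3′ on the strand of its gene, and capitals mark the matches.
Slc2a1: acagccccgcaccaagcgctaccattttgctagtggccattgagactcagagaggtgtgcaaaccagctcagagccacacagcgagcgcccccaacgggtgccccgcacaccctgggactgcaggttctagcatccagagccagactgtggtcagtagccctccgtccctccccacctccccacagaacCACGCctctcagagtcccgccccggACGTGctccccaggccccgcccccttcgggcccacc
Slc5a1: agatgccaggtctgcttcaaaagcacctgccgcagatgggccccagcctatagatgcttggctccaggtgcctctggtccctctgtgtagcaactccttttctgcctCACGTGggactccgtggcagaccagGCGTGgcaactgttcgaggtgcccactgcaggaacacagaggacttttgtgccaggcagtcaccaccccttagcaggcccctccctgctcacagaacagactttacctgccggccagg
Slc2a2: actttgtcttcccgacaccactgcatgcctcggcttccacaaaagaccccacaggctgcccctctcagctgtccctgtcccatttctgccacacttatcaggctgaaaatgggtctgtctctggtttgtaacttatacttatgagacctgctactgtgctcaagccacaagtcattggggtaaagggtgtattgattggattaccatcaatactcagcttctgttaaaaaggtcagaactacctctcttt
Slc5a10: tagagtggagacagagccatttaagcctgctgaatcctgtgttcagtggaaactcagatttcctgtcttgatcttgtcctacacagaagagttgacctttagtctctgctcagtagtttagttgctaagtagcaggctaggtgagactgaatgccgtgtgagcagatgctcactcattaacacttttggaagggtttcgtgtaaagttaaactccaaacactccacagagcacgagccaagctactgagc
Slc2a12: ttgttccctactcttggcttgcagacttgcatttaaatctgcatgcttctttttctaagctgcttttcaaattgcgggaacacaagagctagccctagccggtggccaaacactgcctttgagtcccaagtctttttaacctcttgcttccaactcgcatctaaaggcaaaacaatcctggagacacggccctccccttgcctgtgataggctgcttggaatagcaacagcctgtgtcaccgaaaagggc
The Slc2a1 window held ACGTG 36 bases and GCGTG, on the other strand, 61 bases before the start. In the Slc5a1 window CACGTG began 143 bases and GCGTG 118 bases before the start. The windows of Slc2a5 and Slc2a9, like a second Slc5a10 entry, also held none of the letters searched. Among 32851 promoter windows of the same length, 16.6% held ACGTG, 28.2% GCGTG and 6.02% CACGTG. Either HIF core, or both, was present in 38.6% of these windows, so a window with a core is not rare. A match is a description of the letters and not a bound site.

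Library totals ranged from 18447394 to 24902973 counts in tumors and from 14737516 to 26679704 in normal kidneys. Replicates of 1 group differed by more than counting noise in all 90 pairs. Vhl mRNA fell by 0.49 ± 0.12 on the log2 scale (SE, edgeR adjusted p = 0.00179) and Tsc1 by 0.61 ± 0.18 (adjusted p = 0.00871), Pbrm1 did not pass (-0.28 ± 0.19, adjusted p = 0.23) and Keap1 rose by 0.83 ± 0.09 (adjusted p = 1.3e-07). Indels made by Cas9 need not lower an mRNA, so these levels check the labels weakly. Some libraries stood apart. Normal kidneys 5, 7 and 8 held 2538, 3302 and 1765 CPM (counts relative to the library total scaled by its TMM factor) of the tubule injury marker Lcn2, against 9.77 to 232 CPM in the other 7. Tumor 7 had a summed level of 5 fibroblast markers of 7856 CPM, against 126 to 576 CPM in the other tumors, together with the highest sums of immune (773 CPM) and adipocyte markers (765 CPM). Its summed level of 10 proximal tubule markers was the lowest of all libraries, at 1203 CPM. Normal kidney 9 had the lowest TMM factor (0.749, against 0.881 to 1.14 in the other 19 libraries) and a podocyte marker sum of 84.5 CPM, against 501 to 824 CPM in the other normal kidneys. Its sums of S3 (2710 CPM) and erythroid markers (5624 CPM) were the highest of the normal kidneys. The 5 thick limb and distal tubule markers summed to 0.490 to 8.64 CPM in tumors and to 3966 to 9274 CPM in normal kidneys, with Calb1 and Pvalb at no more than 3 counts in every tumor. Proximal tubule markers were kept in part: 5 of 10 shared markers fell and 0 rose, against 23.8% and 23.6% of all genes tested. Lrp2, the endocytic receptor megalin, was at 450 to 4871 CPM in tumors and 394 to 3437 CPM in normal kidneys. In bulk tissue, fewer cells of a type and less RNA per cell cannot be told apart. Numbers 2 to 6 of both groups held 432 to 755 CPM of Xist and 0 CPM of Ddx3y. Numbers 1 and 7 to 10 held at most 2.39 CPM of Xist and 23.6 to 80.0 CPM of Ddx3y. The paper states that proximal tubule expression in mice differs strongly between the sexes. Sex was not a covariate, and its part in the spread within groups was not tested.

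Of the 10 transporter genes, 3 were higher in tumors than in normal kidneys (Slc2a2, Slc5a10 and Slc2a1), 4 were lower (Slc2a12, Slc2a4, Slc5a2 and Slc2a9) and 3 did not pass the test (Slc2a3, Slc2a5 and Slc5a1). The test was edgeR's quasi-likelihood test with p-values adjusted over 15354 genes, of which 23.6% were higher and 23.8% lower in tumors. The share of members called in each direction thus lay near or above that of all genes, with few members behind it. The median log2 fold change was -0.43 over the 10 genes and -0.02 over all genes tested. The calls were 3 higher and 5 lower both without normal kidneys 5, 7 and 8 and without tumors 7 and 9, where Slc2a5 and Slc2a3, respectively, were added to the lower genes. Both sets were chosen after seeing the data. They held the lowest Slc2a5 of the normal kidneys and the highest Slc2a3 of the tumors, so these added calls are not independent tests. Every tumor lay below every normal kidney for Slc2a4, Slc2a9 and Slc2a12, as did 4.74% of all genes tested. No member had every tumor above every normal kidney, as did 5.87% of all genes.

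**Figure D1:**
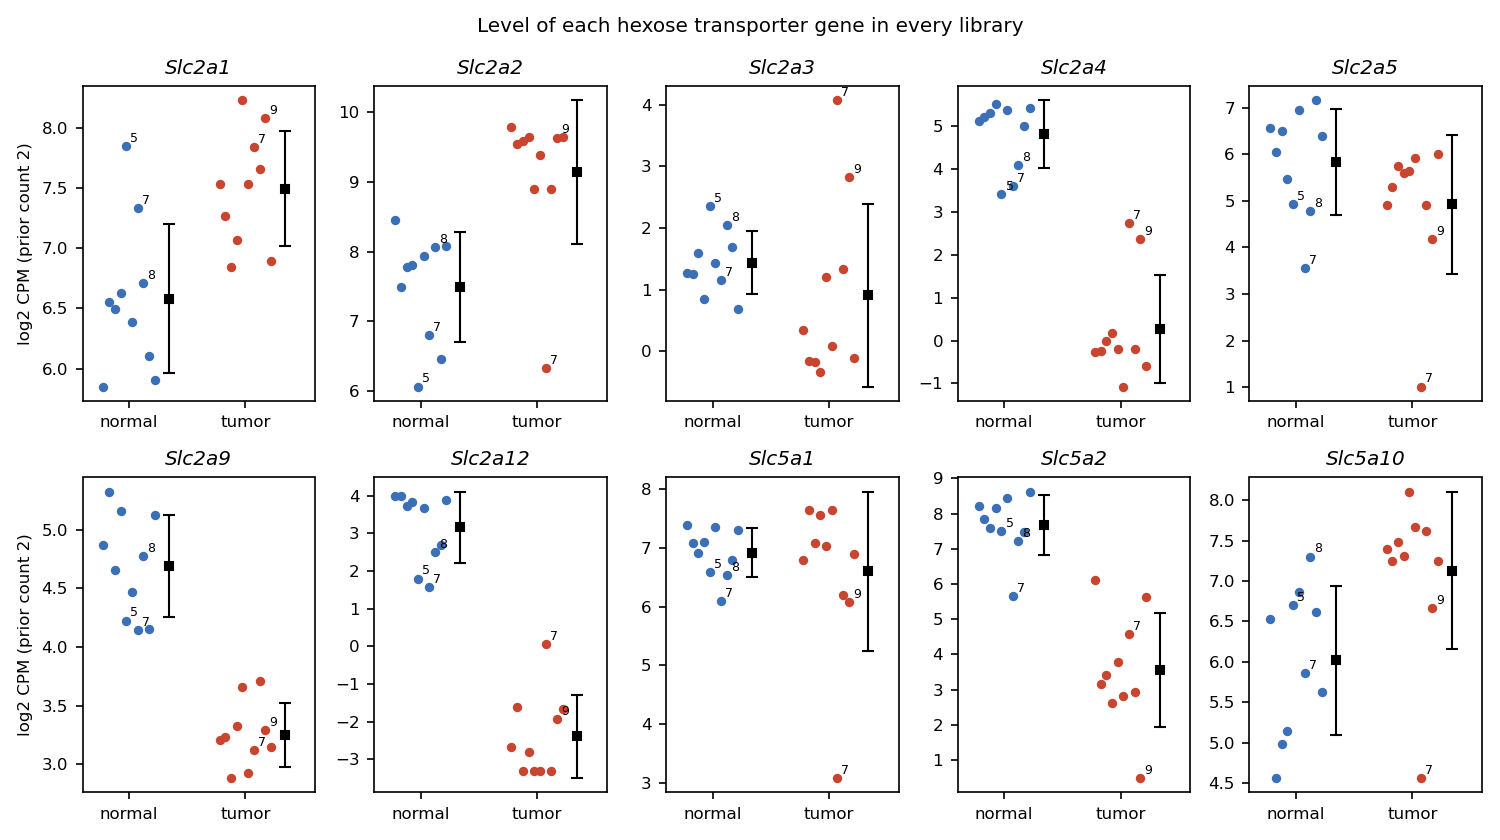
Level of each gene in every library as log2 CPM with a prior count of 2 (blue, normal kidneys; red, tumors; black squares with bars, mean ± SD, n = 10 each), with normal kidneys 5, 7 and 8 and tumors 7 and 9 numbered. Slc2a4, Slc2a9 and Slc2a12 show no overlap between groups, and tumor 7 lies far below the other tumors for Slc2a2, Slc2a5, Slc5a1 and Slc5a10.

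**Figure D2:**
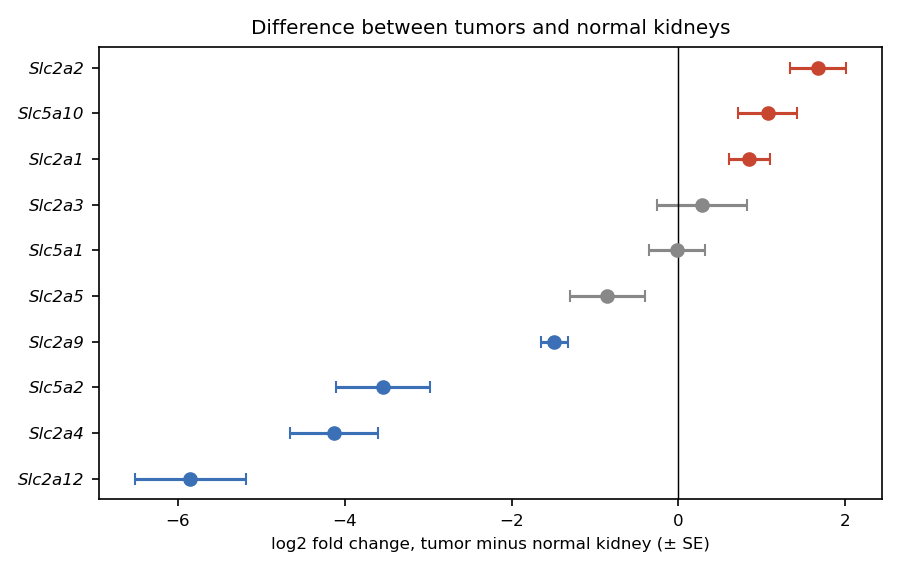
Log2 fold change of each gene, tumor minus normal kidney, with its SE (red, higher and blue, lower at an adjusted p below 0.05 in edgeR; grey, not past it). The values run from -5.86 for Slc2a12 to 1.68 for Slc2a2.

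Luminal uptake by SGLT2 and SGLT1 was examined first. Slc5a2 (ENSMUSG00000030781, chr7:128265657-128272430, + strand, mm10) encodes SGLT2, the high-capacity sodium-glucose carrier of the early proximal tubule and the target of the gliflozin drugs. Its level ranged from 50.7 to 393 CPM in normal kidneys (median 212) and from 1.31 to 69.2 CPM in tumors (median 9.71). Normal kidney 7 was the lowest of its group, the next being 149 CPM, and tumors 1 and 10, at 69.2 and 49.8 CPM, were the highest of theirs. Of the 10 tumors, 9 lay below every normal kidney, and tumor 1 was the exception. Slc5a2 fell by 3.54 ± 0.56 on the log2 scale (edgeR adjusted p = 2.29e-05), which is 11.6-fold lower. The value was -4.00 without tumor 1 and -3.59 without tumor 7. BC017158, on the opposite strand, shares 597 exonic bases with Slc5a2, and its log2 fold change was -0.14 (adjusted p = 0.355).

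Slc5a1 (ENSMUSG00000011034, chr5:33104219-33162870, + strand) encodes SGLT1, the high-affinity carrier of glucose and galactose in the late proximal tubule and the gut. Its level ranged from 68.4 to 167 CPM in normal kidneys (median 128) and from 8.37 to 200 CPM in tumors (median 125). Tumor 7 was lowest by far, since the next tumor had 67.6 CPM, and the other 9 tumors spread across and slightly beyond the range of the normal kidneys. No difference was detected (log2 fold change -0.02 ± 0.33, adjusted p = 0.971). The sign of this small value was not stable, as it was 0.12 without tumor 7.

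Slc5a10 (ENSMUSG00000042371, chr11:61672781-61720826, - strand) encodes SGLT5, a kidney carrier of mannose, fructose and, more weakly, glucose. Normal kidneys held 23.5 to 158 CPM (median 75.3), and tumors 23.5 to 275 CPM (median 163). Tumor 7 had the lowest level of the tumors, the next being 102 CPM, and 6 of 10 tumors lay above the highest normal kidney, number 8. Slc5a10 rose by 1.07 ± 0.36 on the log2 scale (adjusted p = 0.0174), a 2.10-fold difference, and by 1.19 ± 0.30 without tumor 7. Fam83g on the opposite strand shares 393 exonic bases with it, and Fam83g did not pass the test (log2 fold change -0.19, adjusted p = 0.336).

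The balance among the sodium-coupled carriers therefore differed between the groups. Per length, as CPM per kilobase of exon (RPKM), the Slc5a2 level was 2.46 times that of Slc5a1 at the median of normal kidneys (range 1.05 to 3.53) and 0.128 times at the median of tumors. In 9 of 10 tumors this ratio was below all normal kidneys, at 0.883 or less, and in tumor 7, where Slc5a1 was very low, it was 4.04. The Slc5a10 level per length was 0.396 times that of Slc5a2 in normal kidneys (median, range 0.124 to 1.40) and 22.9 times in tumors (median, range 1.21 to 95.3). These ratios follow from the levels given above and were not tested again.

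Among the facilitative carriers, Slc2a2 (ENSMUSG00000027690, chr3:28697903-28731359, + strand) encodes GLUT2, the low-affinity exit path for glucose in proximal tubule, liver and gut. Its level ranged from 67.0 to 350 CPM in normal kidneys (median 222) and from 80.6 to 884 CPM in tumors (median 757). Tumor 7 alone overlapped the normal kidneys, and the other 9 tumors, at 476 CPM or more, were above all of them. Slc2a2 rose by 1.68 ± 0.34 on the log2 scale (adjusted p = 0.000311), a 3.21-fold difference. The proximal tubule S1 and S2 markers, 6 genes, summed to 1356 to 9201 CPM in tumors and 914 to 3581 CPM in normal kidneys, with tumor 7 the lowest tumor. Of these genes, Gatm (1.95 ± 0.59, adjusted p = 0.00953) and Slc4a4 rose, 1 fell and 3 did not pass. The shares over all genes tested were 23.6% higher and 23.8% lower. Gatm and Slc4a4 carried most of the sum, with medians of 2097 and 2909 CPM in tumors and 780 and 943 CPM in normal kidneys. The 3 that did not pass had close medians in tumors and normal kidneys. These were 284 and 309 CPM for Slc5a12, 202 and 193 CPM for Slc7a7, and 273 and 324 CPM for Slc6a19. The part of tubule cell content in the Slc2a2 level was not tested.

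Slc2a1 (ENSMUSG00000028645, chr4:119108711-119137983, + strand) encodes GLUT1, whose promoter window with its ACGTG and GCGTG is printed above. Its level ranged from 57.6 to 230 CPM in normal kidneys (median 92.0) and from 115 to 300 CPM in tumors (median 185). The groups overlapped: 8 of 10 normal kidneys lay below every tumor, but normal kidneys 5 and 7, at 230 and 161 CPM, lay among them. Slc2a1 rose by 0.85 ± 0.24 (adjusted p = 0.00674), a 1.81-fold difference. Without normal kidneys 5, 7 and 8 the rise was 1.27 ± 0.21 (adjusted p = 6.02e-05). These kidneys, chosen after seeing the data, had the highest Slc2a1 of their group, so leaving them out raises the value by construction. Gm12868, an antisense gene that shares 105 exonic bases with Slc2a1, had a mean of 8.90 counts in tumors and 3.30 in normal kidneys, against 3854 and 2144 counts of Slc2a1.

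Slc2a3 (ENSMUSG00000003153, chr6:122727809-122801640, - strand) encodes GLUT3, the high-affinity carrier of neurons, platelets and leukocytes. It was low in both groups, at 1.51 to 5.01 CPM in normal kidneys (median 2.45) and 0.689 to 16.7 CPM in tumors (median 1.07). In tumors 6 of 10 libraries lay below every normal kidney, while tumors 7 and 9, at 16.7 and 7.02 CPM, lay above all of them. The log2 fold change was 0.29 ± 0.54 (adjusted p = 0.684). Its sign turned to -0.54 (adjusted p = 0.28) without tumor 7, and to -1.17 ± 0.30 (adjusted p = 0.00335) without tumors 7 and 9. Leaving out the tumors with the highest Slc2a3 lowers the value by construction. As tumors 7 and 9 were chosen after seeing the data, that adjusted p shows only how far the value rests on them. These tumors also had the highest summed immune markers, 773 and 396 CPM against 176 to 352 CPM in the other 8. The part of immune cells or platelets in the Slc2a3 counts was not tested.

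Slc2a4 (ENSMUSG00000018566, chr11:69942539-69948188, - strand) encodes GLUT4, the insulin-regulated carrier of muscle and fat. Normal kidneys held 10.6 to 45.8 CPM (median 35.9), with numbers 5, 7 and 8 the lowest, at 10.6, 12.1 and 16.9 CPM. Tumors held 0.375 to 6.62 CPM (median 0.775), and tumors 7 and 9, at 6.62 and 5.06 CPM, were well above the other 8, which reached at most 1.03 CPM. Slc2a4 fell by 4.13 ± 0.53 on the log2 scale (adjusted p = 1.64e-06), which is 17.5-fold lower, and by 5.40 ± 0.34 without tumors 7 and 9. Tumors 7 and 9 also had the highest adipocyte sums of the tumors, 765 and 337 CPM against 2.89 to 92.7 CPM in the others. In normal kidneys these sums were 0.189 to 273 CPM, and normal kidney 9, with 0.189 CPM, had 32.2 CPM of Slc2a4. The part of fat tissue in the tumor values was not tested.

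Slc2a12 (ENSMUSG00000037490, chr10:22645011-22704285, + strand) encodes GLUT12, a second insulin-responsive carrier. Normal kidneys held 2.89 to 15.8 CPM (median 12.9). Tumors held 0 to 0.939 CPM (median 0.0495), and tumors 3, 5, 6 and 8 had 0 counts, which allows up to 3 counts or 0.158 to 0.166 CPM in these libraries. Tumor 7 had 22 counts and was the highest, and the next tumor had 0.228 CPM. Slc2a12 fell by 5.86 ± 0.66 on the log2 scale (adjusted p = 3.15e-07), which is 57.9-fold lower, the lowest value among the 10 genes. Without tumor 7 the value was -6.88 ± 0.57. Tbpl1, on the opposite strand, shares 407 exonic bases with Slc2a12, and its log2 fold change was -0.07 (adjusted p = 0.595).

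The urate and fructose carriers come last. Slc2a9 (ENSMUSG00000005107, chr5:38349273-38503143, - strand) encodes GLUT9, a urate transporter of the tubule. Its level was 17.6 to 39.9 CPM in normal kidneys (median 26.3) and 7.27 to 13.0 CPM in tumors (median 9.21), with no overlap and no library apart. It fell by 1.48 ± 0.17 on the log2 scale (adjusted p = 2.65e-07), which is 2.80-fold lower, and its coefficient of variation among tumors, 19.7%, was the smallest of the 10 genes. Slc2a5 (ENSMUSG00000028976, chr4:150119283-150144169, + strand) encodes GLUT5, the fructose carrier of gut and proximal tubule. It ranged from 11.6 to 142 CPM in normal kidneys (median 74.5) and from 1.92 to 63.9 CPM in tumors (median 44.0), where tumors 7 and 9, at 1.92 and 17.9 CPM, were lowest. The log2 fold change was -0.85 ± 0.45 (adjusted p = 0.123), and -1.22 ± 0.41 (adjusted p = 0.0185) without normal kidneys 5, 7 and 8. These kidneys, chosen after seeing the data, had the lowest Slc2a5 of their group, so leaving them out lowers the value by construction. Slc2a5 also passed when same-numbered libraries were fitted as blocks.

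The 3 normal kidneys with high Lcn2 lay apart from the other 7 for 5 of the 10 genes. The share of all genes tested that sets these kidneys apart was not computed. The count is therefore a description and not a trait of hexose transporters. They had the 3 highest levels of Slc2a1 (105 to 230 CPM, against 57.6 to 98.6 CPM) and the 3 lowest of Slc2a4 (10.6 to 16.9 against 32.2 to 45.8 CPM). They were also the 3 lowest for Slc2a12 (2.89 to 5.51 against 6.28 to 15.8 CPM), Slc5a1 (68.4 to 96.0 against 111 to 167 CPM) and Slc2a5 (11.6 to 30.4 against 44.3 to 142 CPM). For the other 5 genes the 3 kidneys overlapped the rest. Slc2a2 was 67.0, 112 and 268 CPM in them and 88.2 to 350 CPM in the others, and Slc5a10 was 104, 57.9 and 158 CPM against 23.5 to 116 CPM, and Slc5a2, Slc2a9 and Slc2a3 overlapped as well. Havcr1, which encodes the injury marker KIM-1, was 163, 1347 and 128 CPM in them and 3.18 to 35.7 CPM in the others. Tumors had 102 to 586 CPM of Havcr1 and 0.474 to 165 CPM of Lcn2. These kidneys were set apart by measured Lcn2, not by a label, and no test was made between them and the rest.

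**Figure D3:**
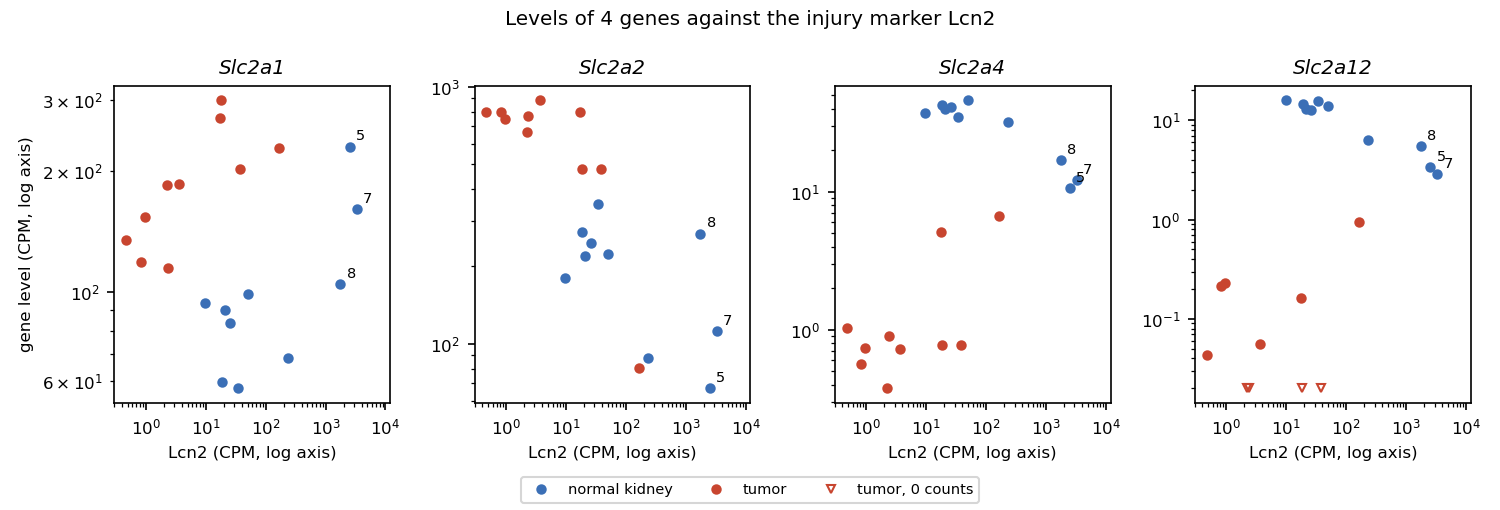
Levels of Slc2a1, Slc2a2, Slc2a4 and Slc2a12 against Lcn2 in every library, both in CPM on log axes (blue, normal kidneys, numbers 5, 7 and 8 marked; red, tumors; open triangles, tumors with 0 counts of Slc2a12, drawn at the bottom). The 3 numbered kidneys have Lcn2 above 1000 CPM, with Slc2a4 between 10.6 and 16.9 CPM and Slc2a12 between 2.89 and 5.51 CPM.

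Levels were compared between genes per length, as RPKM. In normal kidneys the median level was 73.1 RPKM for Slc5a2, then 38.5 for Slc2a2, 31.8 for Slc5a10, 31.3 for Slc5a1, 26.2 for Slc2a1 and 21.9 for Slc2a5. It was 10.3 RPKM for Slc2a4, 5.16 for Slc2a9, 3.03 for Slc2a12 and 0.339 for Slc2a3. Neighbours were compared within libraries by an exact two-sided sign-flip permutation test of the log2 difference, adjusted over 18 such tests. Slc5a2 stood above Slc2a2 in 9 of 10 kidneys (exact adjusted p = 0.0176), while the neighbours from Slc2a2 down to Slc2a5 could not be separated (exact adjusted p from 0.301 to 0.773). From Slc2a5 down each neighbour differed (exact adjusted p from 0.00879 to 0.0273).

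In tumors the order was another. Slc2a2 came first with a median of 132 RPKM, followed by Slc5a10 with 68.9, Slc2a1 with 52.8, Slc5a1 with 30.6 and Slc2a5 with 12.9 RPKM. Slc5a2, first in the normal kidneys, was sixth with 3.35 RPKM, ahead of Slc2a9 with 1.81, Slc2a4 with 0.223, Slc2a3 with 0.148 and Slc2a12 with 0.0117 RPKM. Slc2a2 was above Slc5a10 in 8 of 10 tumors (exact adjusted p = 0.0264), Slc5a1 above Slc2a5 in 10 of 10 (exact adjusted p = 0.00879) and Slc2a9 above Slc2a4 in 9 of 10 (exact adjusted p = 0.0141). Slc2a3 exceeded Slc2a12 in 10 of 10 tumors (exact adjusted p = 0.00879). The other neighbours did not differ beyond their spread, the closest call being Slc2a1 against Slc5a1 (7 of 10 tumors, exact adjusted p = 0.0703).

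Summed over the 10 genes, the level was 135 to 331 RPKM in normal kidneys (median 231) and 106 to 339 RPKM in tumors (median 304), and the lowest library in each group was number 7. Not divided by length, the sum was 496 to 1159 CPM in normal kidneys (median 840) and 400 to 1459 CPM in tumors (median 1294), and 8 of 10 tumors lay above the highest normal kidney. This was not so in RPKM, where the tumor median of 304 was below the highest normal kidney, at 331. In the CPM sum of tumors, Slc2a2 alone had a median share of 58.2%. The sums were not tested. The sodium-coupled genes made up 43.3% to 63.6% of the RPKM sum in normal kidneys (mean 56.9% ± 6.16, SD, n = 10) and 19.0% to 45.2% in tumors (mean 35.3% ± 8.56, n = 10). Slc5a2 gave 31.0% ± 9.02 in normal kidneys and 2.67% ± 2.93 in tumors, Slc2a2 14.1% ± 4.83 and 37.8% ± 11.4, and Slc2a1 13.8% ± 9.81 and 21.7% ± 15.1. In tumor 7 Slc2a1 alone made up 61.4% of the sum, the highest share of any tumor.

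**Figure D4:**
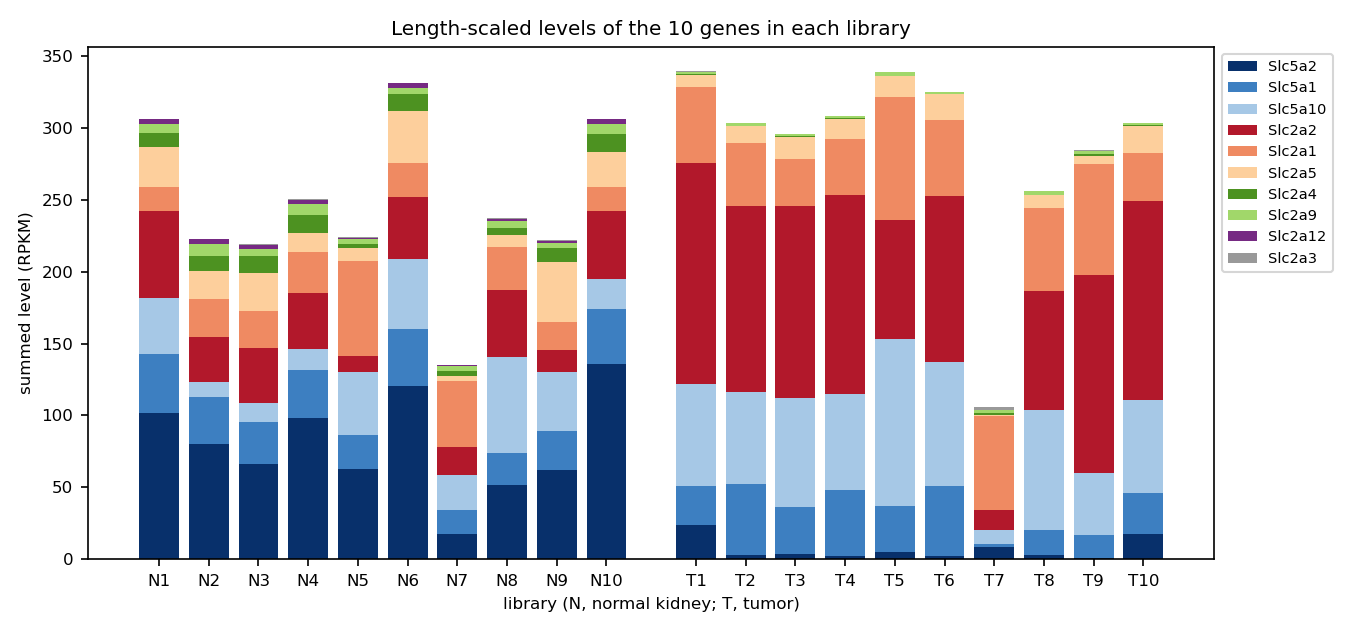
Length-scaled levels (RPKM) of the 10 genes stacked for each of the 20 libraries (N, normal kidneys; T, tumors). Slc5a2, the lowest block of each bar, shrinks in tumors, Slc2a2 widens in all tumors but number 7, and tumor 7 has the smallest sum, 106 RPKM.

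How the genes varied together was examined within groups, for 8 correlations of log2 CPM with n = 10 each, permutation p-values and adjustment over the 8. In tumors Slc2a1 and Slc2a3 went together (r = 0.71, permutation p = 0.0179, adjusted p = 0.0477; rho = 0.85, permutation p = 0.0027, adjusted p = 0.0216). Without tumors 3 and 5, the farthest from the median of Slc2a1, r was 0.81 and its adjusted permutation p was 0.107. In the same 8 tumors rho was 0.90 (permutation p = 0.00456, adjusted p = 0.0365). Slc2a5 and Slc5a1 went together in tumors (r = 0.96, permutation p = 0.00218, adjusted p = 0.0174; rho = 0.65, permutation p = 0.0486, adjusted p = 0.129) and in normal kidneys (r = 0.80, permutation p = 0.00536, adjusted p = 0.0214; rho = 0.65, permutation p = 0.0478, adjusted p = 0.129). Both relations rested on the libraries at the low end, since r was 0.51 without tumors 7 and 9 and 0.44 without normal kidneys 7 and 8 (adjusted permutation p = 0.485 for each). Slc2a1 and Slc2a2 gave r = -0.68 in normal kidneys (permutation p = 0.0323, adjusted p = 0.0646; rho = -0.59, permutation p = 0.0805, adjusted p = 0.129) and r = -0.07 without normal kidneys 5 and 7. The other 4 correlations, among them Slc2a2 with Slc5a2, which work in series in the same cells, did not pass after adjustment (adjusted permutation p of r from 0.162 to 0.562).

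Likeness to other genes was described as Pearson's r of the deviations from the group means over the 20 libraries, which share tissue makeup and depth. The genes named are the highest among all genes tested, and no chance level was computed for such a maximum. For Slc2a2 the 3 most alike genes were Chdh (r = 0.96), C2cd2l (0.93) and Kctd17 (0.92), and for Slc2a5 they were Mtif3 (0.96), Abhd3 (0.95) and Dele1 (0.94). For Slc2a1 they were Phf13 (0.89), Csnk1e (0.87) and Klf6 (0.87), and for Slc2a3 Pim1 (0.95), Ly6d (0.93) and Fgl2 (0.93). Slc5a1 was most like Ugp2 (0.94), which makes UDP-glucose for glycogen. Within groups, r was 0.97 in tumors but 0.41 in normal kidneys for Slc5a1 with Ugp2, and 0.98 and 0.29 for Slc2a3 with Ly6d. Slc2a12 was most like Slc16a7 (0.92), a monocarboxylate carrier. Qpct (0.94) led for Slc2a4, Ston1 (0.83) for Slc2a9, and Stra6l (0.83) for Slc5a10. Slc5a2 had no gene above 0.72, the value of Zfp296, so its spread between libraries was shared least. Among the members themselves r ran from -0.86 (Slc2a3 and Slc5a1) to 0.87 (Slc2a5 and Slc5a1).

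Other members of the transporter families were read next. Of 10 further Slc2a and Slc5a genes fixed as a list, 7 were tested, 0 rose and 2 fell. The shares over all genes tested were 23.6% and 23.8%. Slc5a3, the sodium-coupled carrier of the osmolyte myo-inositol, fell by 3.67 ± 0.26 on the log2 scale (adjusted p = 4e-10), from 90.3 to 298 CPM in normal kidneys to 8.03 to 28.1 CPM in tumors with no overlap. Slc2a13, which encodes the proton-coupled myo-inositol carrier, fell by 2.10 ± 0.43 (adjusted p = 0.000376), and by 2.84 without tumors 7 and 9. The log2 fold change of Slc5a11, another myo-inositol carrier, was -0.87 ± 0.45 (adjusted p = 0.118), and that of Slc2a8, an intracellular hexose carrier, was 0.25 ± 0.16 (adjusted p = 0.202), and 0.37 (adjusted p = 0.0323) without tumor 7 and normal kidney 9. Miox, the enzyme that degrades myo-inositol in the proximal tubule, fell by 3.24 ± 0.56 (adjusted p = 6.95e-05).

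Inside the cell glucose is trapped by hexokinase or released by glucose-6-phosphatase. Of 9 genes on that list 7 were tested, 4 rose and 0 fell, against 23.6% and 23.8% of all genes tested. Hk2, the hexokinase bound to mitochondria and known to rise in many tumors, went from 1.44 to 13.8 CPM in normal kidneys (median 4.74) to 81.4 to 331 CPM in tumors (median 213). The groups did not overlap, and the rise was 5.13 ± 0.41 on the log2 scale (adjusted p = 1.69e-09). Hkdc1 rose by 2.45 ± 0.47 (adjusted p = 0.000189) and Hk3, the hexokinase of leukocytes, by 2.33 ± 0.59 (adjusted p = 0.00268). Tumor 7, which had the highest immune sum, carried much of the Hk3 value, with 23.8 CPM against a tumor median of 1.78 CPM, and without it the rise was 1.09 ± 0.30 (adjusted p = 0.00434). Hk1, the common form, rose by only 0.31 ± 0.12 (adjusted p = 0.042), and this call was lost in 19 of 32 alternatives (adjusted p from 0.0223 to 0.36 over all). Among them was leaving out any of normal kidneys 1, 2, 5, 8 and 9 or of tumors 1, 2, 5, 6, 7 and 9 (log2 fold change 0.26 to 0.31). G6pc, the catalytic subunit of glucose-6-phosphatase, ranged from 80.7 to 1182 CPM in normal kidneys and from 11.6 to 711 CPM in tumors, and did not pass (-1.21 ± 0.52, adjusted p = 0.0594). It passed in 11 of 32 alternatives, among them without normal kidney 5 or 7 or without tumor 5, 7 or 8 (-1.07 to -1.49).

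Of the 5 genes that handle fructose 1 rose and 0 fell, against 23.6% and 23.8% of all genes tested. Tkfc, which phosphorylates glyceraldehyde from fructose, rose by 0.63 ± 0.23 (adjusted p = 0.0258), a call lost in 5 of 32 alternatives. These were leaving out tumor 2 (0.54, adjusted p = 0.0543), upper-quartile factors (0.51, adjusted p = 0.0594), library totals (0.49, adjusted p = 0.0699), limma-voom (0.54, adjusted p = 0.0782) and the replicate block (0.55, adjusted p = 0.0915). Khk, the ketohexokinase that starts fructose breakdown, did not pass (log2 fold change -0.74 ± 0.31, adjusted p = 0.0579) but passed in 10 of 32 alternatives, among them without normal kidney 5, 7 or 8 or without tumor 5 (-0.81 to -0.84).

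Of 12 genes for partners and trafficking of the carriers, 7 rose and 1 fell. Among all genes tested 23.6% were higher and 23.8% lower. The count was 7 and 1 without normal kidneys 5, 7 and 8, and 5 and 1 without tumors 7 and 9. It was also 5 and 1 without any 1 of normal kidneys 1, 2, 3, 6 and 10 or without tumor 5. Without tumor 8, or with upper-quartile factors, it was 5 and 2. Stom, which encodes stomatin, a membrane protein that binds GLUT1, rose by 3.48 ± 0.24 (adjusted p = 1.93e-10), from a median of 14.3 CPM in normal kidneys to 196 CPM in tumors with no overlap. Tbc1d4 (AS160), the brake on GLUT4 vesicles that insulin releases, rose by 1.39 ± 0.21 (adjusted p = 1.29e-05), and Rab10, the GTPase that AS160 acts on, by 0.66 ± 0.12 (adjusted p = 7.49e-05). Arrdc4, an arrestin that draws GLUT1 off the surface, rose by 1.11 ± 0.20 (adjusted p = 0.000114), while its relative Txnip did not pass (-0.07 ± 0.27, adjusted p = 0.852). Dpp4, a brush-border peptidase of the proximal tubule, rose by 1.76 ± 0.29 (adjusted p = 4.41e-05). Sh3bp4, an adaptor of clathrin-mediated uptake, fell by 1.54 ± 0.13 (adjusted p = 5.27e-09). Pdzk1ip1 (MAP17), the small protein that SGLT2 needs for full activity, did not pass (0.36 ± 0.34, adjusted p = 0.406), with 92.8 to 603 CPM in tumors and 110 to 826 CPM in normal kidneys.

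**Figure D5:**
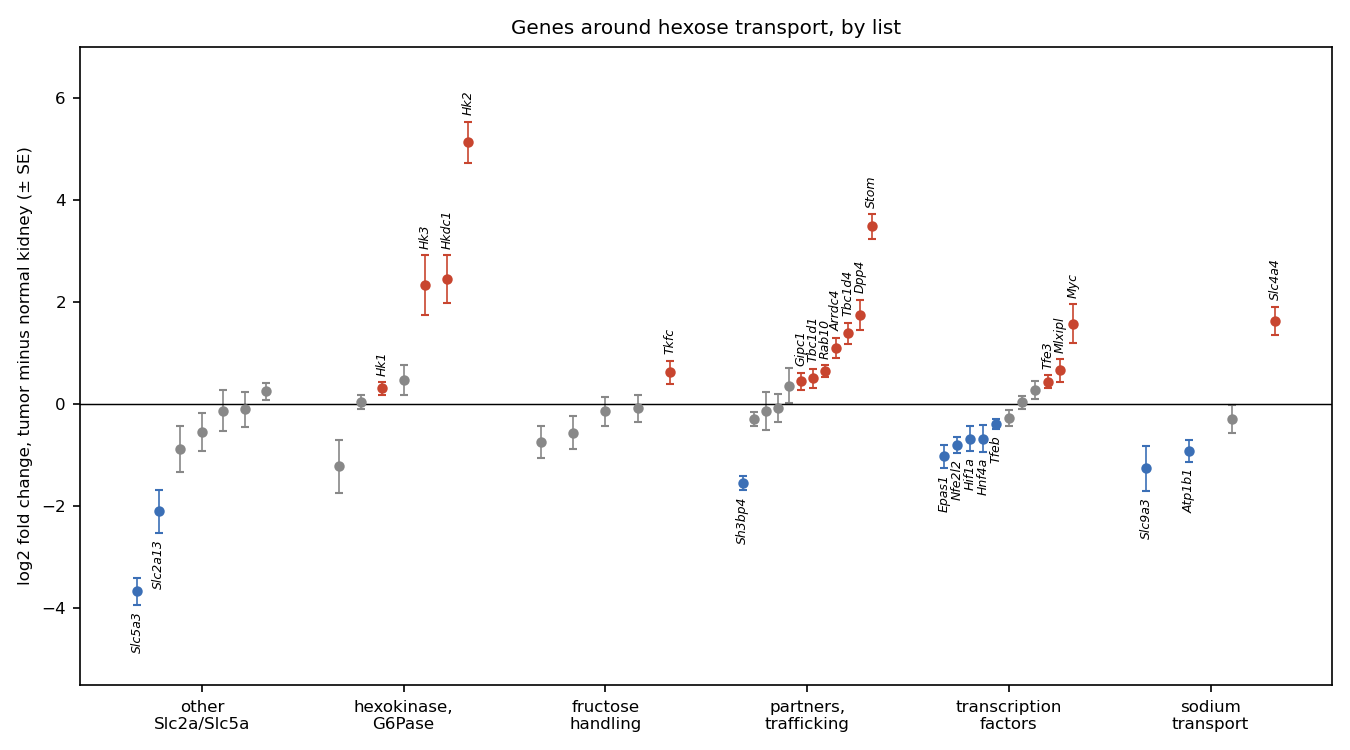
Log2 fold change, tumor minus normal kidney, with its SE for the tested genes of 6 lists around hexose transport, with names for those at an adjusted p below 0.05 in edgeR (red, higher; blue, lower; grey, not past it). Hk2 (5.13) and Stom (3.48) are the highest and Slc5a3 (-3.67) is the lowest.

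Of 11 transcription factors known to act on these transporter genes, 3 rose and 5 fell, and 1 rose and 5 fell with library totals. In the main test 23.6% of all genes rose and 23.8% fell. Myc, which can raise Slc2a1 and Hk2, rose by 1.58 ± 0.38 (adjusted p = 0.00182). Normal kidney 5, at 89.7 CPM against a median of 12.1 CPM in its group, lay within the tumor range of Myc (37.6 to 92.0 CPM), and without it the rise was 2.17 ± 0.24 (adjusted p = 4.31e-07). It was 2.54 ± 0.20 without normal kidneys 5, 7 and 8. Epas1, which encodes HIF2 alpha, fell by 1.02 ± 0.22 (adjusted p = 0.000763) and Hif1a by 0.67 ± 0.24 (adjusted p = 0.028). The Hif1a call was lost without normal kidneys 5, 7 and 8 (-0.31, adjusted p = 0.282), and also without normal kidney 5 or 7 or without tumor 2, 6 or 10 (-0.52 to -0.63). HIF alpha subunits are controlled mainly through protein stability, which these counts do not measure. Nfe2l2, which encodes NRF2, the factor held back by Keap1, fell by 0.79 ± 0.16 (adjusted p = 0.000282). This is an mRNA level, and NRF2 protein or activity was not measured here. The paper reports that the NRF2 targets Nqo1, Gstm1 and Gstp1 were higher in these tumors. Hnf4a, a factor of proximal tubule identity, fell by 0.67 ± 0.26 (adjusted p = 0.0371), a call lost without any of normal kidneys 1, 2, 3, 6 and 10 or of tumors 1, 8 and 9 (-0.60 to -0.66).

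The sodium gradient that drives SGLT carriers is made by the sodium pump. Of 4 genes listed for the pump and proximal sodium transport, 1 rose and 2 fell, against 23.6% and 23.8% of all genes tested. Atp1b1, the pump's beta subunit, fell by 0.92 ± 0.21 (adjusted p = 0.00105). Slc9a3, the luminal sodium-proton exchanger NHE3, fell by 1.25 ± 0.44 (adjusted p = 0.0235), and Slc4a4, the sodium bicarbonate exit path on the blood side, rose by 1.63 ± 0.28 (adjusted p = 5.34e-05).

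Markers of the proximal tubule did not move as a block beside the transporters. Slc22a8, an organic anion carrier, fell by 3.74 ± 0.53 (adjusted p = 6.24e-06) and the water channel Aqp1 fell by 2.62 ± 0.39 (adjusted p = 1.06e-05), while Lrp2 did not pass (0.56 ± 0.41, adjusted p = 0.275). Of 5 tested markers of the S3 segment 4 fell, among them Slc22a13, which had at most 1 count in any tumor and 9.50 to 190 CPM in normal kidneys. Slc2a2, in the members that rose, and Slc5a2, in those that fell, are thus both genes of this tubule, and the part of segment makeup in either value was not tested. Of the 4 podocyte markers tested 4 fell, of 5 fibroblast markers 0 passed (2 rose without normal kidney 7 and 2 fell without tumor 7), and of 7 immune markers 3 rose. Beside these marker counts, 23.6% of all genes tested rose and 23.8% fell.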

How the data were processed

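RNA from flash-frozen, pulverized tissue was extracted with Trizol, and Novogene made poly A libraries and sequenced them as read pairs. The authors deposited whole-number counts per gene without normalization. The submitters' processing notes name mm10, and the aligner, counting tool and use of strand are not given in the sources used here, so overlapping and antisense genes carry uncertain counts. Rows that name no gene and unused sample columns numbered 0. Groups came from the sample labels, which do not say that a shared number marks a mouse. P-values therefore measure the spread between these samples.

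Counts were scaled by TMM factors (edgeR 4.0.16, R 4.3.3), genes were filtered with a count minimum of 10, which left 15354, and tumors were compared with normal kidneys by edgeR's quasi-likelihood test without covariates, with Benjamini-Hochberg adjustment over all genes tested and a threshold of 0.05. Levels of a library are given in CPM, in log2 CPM (prior count 2) or in RPKM from the gene length given with the deposited counts. RPKM comparisons used a pseudocount of 0.05. Correlations used 100000 permutations, or all orders for 8 libraries. Intervals for 0 counts cover counting error only. The tests were tried on simulated data. Alternatives used limma 3.58.1 and DESeq2 1.42.0, other factors and fewer libraries. The named genes are all 10 members, examples from the fixed lists, and the 3 genes most like each member. The members and lists were chosen with earlier results of these data known. A few genes of these lists are not reported here.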

Additional observations from a re-analysis of the deposited data

Results flagged for a closer look

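In 6 of 20 groups of 10 libraries (10 genes, 2 groups each) a single library lay far from the other 9 by Dixon's test. Chance gives such a gap in about 1 in 20 independent groups. These groups share the same libraries, so their count cannot be set against that rate. In 5 of the 6 the library was tumor 7. Its log2 CPM was 6.33 for Slc2a2, 1.01 for Slc2a5, 3.08 for Slc5a1 and 4.56 for Slc5a10, each the lowest of the tumors, and 0.055 for Slc2a12, the highest. For Slc2a12, 4 tumors had 0 counts and were tied at the lowest value. In the remaining group normal kidney 7 had a log2 CPM of 5.67 for Slc5a2, the lowest of its group. Tumor 7 also had the highest fibroblast sum (7856 CPM) and normal kidney 7 the highest of the normal kidneys (1398 CPM).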

How the results depend on the processing

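In 32 alternatives the calls of Slc2a1, Slc2a2, Slc2a4, Slc2a9, Slc2a12, Slc5a2 and Slc5a10 kept their direction and stayed past the threshold (adjusted p at most 0.0372). The sign of Slc2a3, which did not pass, turned with DESeq2 (-0.56), limma-voom (-0.51), limma-voom with quality weights (-1.05, adjusted p = 0.00273), the replicate block (-0.64), without tumor 7 and normal kidney 9 (-0.55) and without tumors 7 and 9 (-1.17), and lay between -0.54 and 0.43 without single libraries. Slc5a1 turned to 0.083 without tumor 7 and normal kidney 9 and 0.21 without tumors 7 and 9, and lay between -0.13 and 0.12 without single libraries. Slc2a5 passed with quality weights (-0.78), the replicate block (-0.88) and without normal kidneys 5, 7 and 8 (-1.22). The libraries left out as sets of 3 kidneys and 2 tumors were chosen after seeing the data. The correlation of Slc2a5 and Slc5a1 in normal kidneys did not pass with library totals (r = 0.69). Without the 2 libraries farthest from the median r was 0.44, and 0.51 in tumors, and that of Slc2a1 and Slc2a3 in tumors was 0.81, none past the threshold. For Slc2a1 and Slc2a3 in these tumors rho stayed past it (0.90, adjusted permutation p = 0.0365). The r of Slc2a2 and Slc5a2 in tumors turned from -0.16 to 0.28. Outside the members the sign turned for Txnip without normal kidneys 5, 7 and 8 (0.061) and lay between -0.192 and 0.047 without single libraries and for Pdzk1ip1 without these kidneys (-0.0058). The cause was not tested. Upper-quartile factors and library totals moved the median over all genes tested on the log2 scale from -0.02 to -0.14, with 3000 higher and 4650 lower, and 2850 higher and 4554 lower genes, against 3631 and 3661. Quality weights called 5337 and 5407 genes. Not dividing by gene length changed the mean share of the sodium-coupled genes to 48.1% in normal kidneys and 24.7% in tumors. Same-numbered libraries deviated together in 9 of 10 pairs (r above 0.1), but not in pair 9 (r = -0.14), and a tumor correlated best with its own number in 8 of 10. Xist was above 100 CPM in both libraries of 5 pairs and below 10 CPM in both libraries of the other 5. The labels do not give pairs and pair 9 stood out, so the main test did not use them. Both kinds of tissue came from a cohort of 10 mice, so the main test treats as independent some libraries that can share a mouse. If the numbers do mark mice, that test leaves the pairing out. With the replicate block 3979 genes were higher and 3886 lower, and of the 10 members 3 were higher and 5 lower. At 0 to 22 counts per tumor, the Slc2a12 level in tumors is limited by depth.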
